A study of Homo sapiens with 9 samples.

Results

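CTCFL-KD and CTCFL-OE, the groups with the lowest and the highest level of *CTCFL* in OVCAR3 cells, were compared directly by RNA-seq. OVCAR3 is an established human ovarian carcinoma cell line. The members are the 6 libraries that the labels place in these groups, of 9 in all, with 3 biological replicates in each group. CTCFL-OE cells had been transiently transfected with 2 µg of a *CTCFL* expression plasmid and harvested after 48 h. CTCFL-KD cells carried a knockdown of *CTCFL*, and their RNA came from an experiment published earlier, whose method is not given in the sources used here. The 3 Control libraries stayed out of the contrast and were used to place the Control level of each gene between the groups or outside them. Control cells had received a LacZ plasmid according to the study's methods, while their label states no treatment. Each biological replicate pooled 3 technical replicates. No knockdown control is among the 9 libraries, so the level of *CTCFL*, the way it was changed and the experiment the RNA came from cannot be told apart in this comparison.

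CTCFL (BORIS) is the paralog of CTCF, a zinc-finger protein that binds DNA in most cell types and organizes chromatin loops together with cohesin. CTCFL is normally made in the testis and is made again in several cancers, for which it is counted among the cancer-testis antigens. Both proteins read closely similar DNA motifs, with a GC-rich core.

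Total counts ranged from 14332622 to 17995196 in CTCFL-KD, from 17249451 to 20178085 in CTCFL-OE and from 19006695 to 24490080 in Control. Expression is given as CPM, the usual depth-scaled count, computed here with TMM-scaled library sizes, and CPM does not correct for gene length, so levels are compared within a gene only. One library stood apart before any result. The root mean square difference in log2 CPM over 13537 genes was 0.22 between replicates 2 and 3 of CTCFL-KD, but 0.84 and 0.85 between replicate 1 and these. For each gene, the log2 CPM of replicate 1 was set against the mean of replicates 2 and 3. The median of these differences was 0.70 in the shortest of 5 equal classes of transcript length and -0.63 in the longest. Differences between a CTCFL-OE and a CTCFL-KD library ranged from 0.77 to 1.13, and those between CTCFL-OE libraries from 0.33 to 0.54. Mitochondrial genes took 7.40% to 14.9% of the counts in CTCFL-OE, 7.80% to 11.8% in CTCFL-KD and 6.16% to 6.52% in Control. Of the 13 ovarian carcinoma markers, all passed the count filter, with *PAX8* between 541 and 978 CPM in the 9 libraries. Of the 20 fibroblast markers 7 passed, and *ASPN*, *DPT* and *PRRX1* had no count in any library. The summed CPM of the fibroblast list ranged from 103 to 224 in CTCFL-OE and from 155 to 266 in CTCFL-KD, and its part in the results was not tested.

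*CTCFL* itself (chromosome 20 of GRCh38, 57495966 to 57525652, minus strand) followed the labels. It had 36, 34 and 72 counts in CTCFL-OE, 6, 9 and 10 in Control and 0, 1 and 0 in CTCFL-KD. The 3 groups did not overlap, and Control lay between the others. The log2 fold change, CTCFL-KD over CTCFL-OE, was -6.52 (standard error, SE, 0.81; adjusted p 0.000242 by the quasi-likelihood test of edgeR, with p-values adjusted by the Benjamini-Hochberg procedure). Summed over the libraries and scaled to library size, *CTCFL* was 114-fold higher in CTCFL-OE, with an exact 95% binomial interval of 20.2 to 4547, which rests on 1 count in CTCFL-KD. Counted reads carry no molecular identifiers, so such intervals, and the lower bounds given for groups with no count at all, cover counting error only. Without one library at a time the log2 fold change ranged from -8.64 to -5.93. *CTCF* had 54.2, 64.03 and 62.8 CPM in CTCFL-KD and 77.9, 68.2 and 64.8 CPM in CTCFL-OE, which gave a log2 difference of -0.22 (SE 0.16) that did not pass the test (adjusted p 0.323).

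The study predicted CTCFL binding sites only at genes that it found differentially expressed in both of its comparisons with Control in these libraries. Genes with a listed site were thus selected on the same libraries as used here. From public ChIP-seq data of another ovarian cancer cell line, it reported CTCFL and CTCF at the sites of *VEGFA*, *IL12A* and *RBM20*. The predicted CTCFL binding sites listed by the study include 9 at genes described here, of which 5 hold the core motif AGGGGGC. The 4 shown hold it. The site listed for *CTCFL* holds it too but was not found within 60 bases of its listed position, and the sites of *TGFBI*, *IER3*, *MMP7* and *GGT6* do not hold it. Each site shown was found again in GRCh38 by its sequence, the capitals mark the core, and the sites are written 5′ to 3′ on the strand named.
VEGFA site, chr6:43769631-43769644, plus strand: cactAGGGGGCgct
IL12A site, chr3:159988707-159988720, plus strand: cggcAGGGGGCgct
RBM20 site, chr10:110644228-110644238, minus strand: ccAGGGGGCgt
EDN2 site, chr1:41477442-41477451, minus strand: caAGGGGGCa

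The first 3 sites lie before the annotated starts of *VEGFA* (43770184), *IL12A* (159988835) and *RBM20* (110644336), which are transcribed from the plus strand. The EDN2 site lies past the annotated end of *EDN2*, which runs from 41484683 to 41478775 on the minus strand. *RBM20* and *IL12A* are also the only genes among the 32 leading genes described next whose RefSeq promoter (GRCh38.p14, 250 bases before to 50 after the start) holds AGGGGGC on either strand. A promoter was at hand for 24 of the 32. The capitals mark the core, which in *RBM20* lies on the minus strand and reads GCCCCCT.
RBM20 promoter, chr10:110644086-110644385, plus strand: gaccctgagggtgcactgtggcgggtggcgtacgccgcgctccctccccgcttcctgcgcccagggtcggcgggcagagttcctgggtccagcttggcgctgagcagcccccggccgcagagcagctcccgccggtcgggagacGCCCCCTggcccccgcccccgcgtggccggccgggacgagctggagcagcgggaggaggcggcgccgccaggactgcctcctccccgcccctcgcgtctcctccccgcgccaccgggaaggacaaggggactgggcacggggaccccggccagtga
IL12A promoter, chr3:159988585-159988884, plus strand: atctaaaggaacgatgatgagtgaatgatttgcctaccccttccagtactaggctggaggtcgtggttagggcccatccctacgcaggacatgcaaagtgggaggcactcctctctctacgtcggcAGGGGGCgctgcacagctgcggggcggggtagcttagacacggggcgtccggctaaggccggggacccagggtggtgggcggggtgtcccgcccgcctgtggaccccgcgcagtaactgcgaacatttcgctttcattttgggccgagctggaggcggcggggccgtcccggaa

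These promoters stand at genes of opposite direction. *RBM20* was lower in CTCFL-KD with Control between the groups, and *IL12A* was higher in CTCFL-KD with Control below both. AGGGGGC on either strand was found in 14.1% of the 27305 promoters of the table and in 19.9% of the promoters of 11958 tested genes. The share was 21.2% for genes higher in CTCFL-KD, 18.8% for genes lower in CTCFL-KD and 19.8% for genes that did not pass. Among differentially expressed genes, the promoters held it in 17.1% where Control lay between the groups and in 21.8% where Control lay outside them. These shares lie within a few percentage points of the share over all tested genes and describe letters in a window, not binding.

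A differentially expressed gene (DEG) had an adjusted p under 0.05 by the quasi-likelihood test of edgeR and differed by more than 1 on the log2 scale, up or down. Of 17794 genes tested, 3032 (17.0%) were DEGs, of which 1889 (10.6%) were higher and 1143 (6.42%) lower in CTCFL-KD than in CTCFL-OE. Protein-coding genes made up 2397 of the DEGs, and long non-coding RNA genes 410. The 3 CTCFL-KD and the 3 CTCFL-OE libraries did not overlap in 2952 of the DEGs, and in 39.8% of all genes tested. Without replicate 1 of CTCFL-KD there were 3103 DEGs, which included 80.9% of the 3032. In bulk RNA, fewer cells with a transcript and less transcript per cell cannot be told apart.

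The genes with the largest increase in CTCFL-KD over CTCFL-OE were close to silent in CTCFL-OE and in Control. Among the protein-coding DEGs whose groups did not overlap and whose higher group reached 10 CPM, the 8 highest were *OPRPN*, *PGAP4*, *MAN1A1*, *VIT*, *BMP3*, *BCL11A*, *COL1A2* and *TMPRSS15*. *VIT*, which encodes the matrix protein vitrin, had 85.2, 87.6 and 93.99 CPM in CTCFL-KD, 0.274, 0.314 and 0.184 CPM in CTCFL-OE and 0.301, 0.272 and 0.405 CPM in Control. Every CTCFL-KD library was far above all 6 others, and Control overlapped CTCFL-OE. The log2 fold change of *VIT* was 8.38 (SE 0.25, adjusted p 3.27e-08). *PGAP4*, a glycosyltransferase that acts on GPI anchors, had 135, 195 and 236 counts in CTCFL-KD and no count in the 6 other libraries. It was at least 76.8-fold higher in CTCFL-KD than in CTCFL-OE, taking 3 counts per library as the upper limit for 0 counts. *MAN1A1*, a Golgi mannosidase of N-glycan trimming, had 11.4, 26.7 and 29.4 CPM in CTCFL-KD and at most 1 count in any other library. Its summed level was 1381-fold that in CTCFL-OE (95% interval 247 to 54599.98). The bone morphogenetic protein gene *BMP3* had 13.3, 33.1 and 27.9 CPM in CTCFL-KD and at most 3 counts in any other library, a ratio to CTCFL-OE of 302 (95% interval 129 to 930.4). Both genes had their lowest CTCFL-KD value in replicate 1.

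*COL1A2*, a chain of type I collagen, and *BCL11A*, a zinc-finger repressor, gave the same picture. *COL1A2* had 14.1, 14.2 and 13.5 CPM in CTCFL-KD against 1, 2 and 0 counts in CTCFL-OE (ratio 266, 95% interval 90.5 to 1292), and it is also on the list of fibroblast markers. *BCL11A* had 9.02, 10.5 and 11.01 CPM in CTCFL-KD against 2, 0 and 0 counts in CTCFL-OE (ratio 296, 95% interval 81.6 to 2453). *COL1A1*, the partner chain of *COL1A2*, did not pass the test, with 26.1, 22.4 and 21.3 CPM in CTCFL-KD and 23.2, 35.3 and 42.1 CPM in CTCFL-OE. *TMPRSS15*, the protease enteropeptidase, had a ratio of 197 (95% interval 95.5 to 492), and *OPRPN*, a secreted prepropeptide, was at least 82.4-fold higher in CTCFL-KD. In 7 of these 8 genes Control overlapped CTCFL-OE. *OPRPN* had 1, 1 and 3 counts in Control and none in CTCFL-OE, so its place between the groups rests on counts at the limit of detection.

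The 8 lowest genes were taken within the same limits, which here require a mean of at least 10 CPM in CTCFL-OE. Control lay between the groups in 3 of the 8. *SLC1A6*, a glutamate transporter, had 13.7, 8.05 and 9.83 CPM in CTCFL-OE, 5.86, 5.44 and 5.32 CPM in Control and no count in any CTCFL-KD library. It was at least 51.5-fold lower in CTCFL-KD, and the 3 groups did not overlap. *LAMA3*, the alpha chain of the epithelial laminin of basement membranes, had 1098, 1420.2 and 1791 CPM in CTCFL-OE, 756, 885 and 828 CPM in Control and 47.4, 81.3 and 92.02 CPM in CTCFL-KD. All 3 Control libraries lay below the lowest CTCFL-OE library and above the highest CTCFL-KD library. Its log2 fold change was -4.29 (SE 0.31, adjusted p 1.51e-05), beside log2 fold changes over Control of 0.80 in CTCFL-OE, which did not pass (adjusted p 0.171), and of -3.48 in CTCFL-KD. *ATOH8*, a basic helix-loop-helix transcription factor, had 7.57, 11.7 and 16.6, 5.11, 5.56 and 7.09 and 0.992, 0.595 and 0.548 CPM in CTCFL-OE, Control and CTCFL-KD, with a log2 fold change of -4.11 (SE 0.37, adjusted p 3.77e-05).

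The steps of *SLC1A6* and *ATOH8* from Control to CTCFL-OE did not pass either (adjusted p 0.11 and 0.121). In the other 5 of these genes Control did not lie between the groups. *IGF2BP1*, an RNA-binding protein of fetal tissues and cancers, had 86.4, 123 and 103 CPM in CTCFL-OE, 99.4, 108 and 114 CPM in Control and 2.71, 3.51 and 3.72 CPM in CTCFL-KD. The log2 fold change was -4.96 (SE 0.22, adjusted p 1.01e-06), with CTCFL-OE and Control overlapping. The cytokine gene *IL32* (log2 fold change -4.46), the neurofilament gene *NEFH* (-4.11) and *SPP1*, which encodes osteopontin (-4.38), also had Control overlapping CTCFL-OE. The hair keratin gene *KRT81* fell by 4.43 on the log2 scale, with Control above both groups at 14.6, 15.1 and 13.9 CPM. *KRT81* has close paralogs, and how reads that align to several genes were counted is not stated, so its value is uncertain. All 16 leading genes were DEGs without any one of the 6 libraries.

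**Figure D1:**
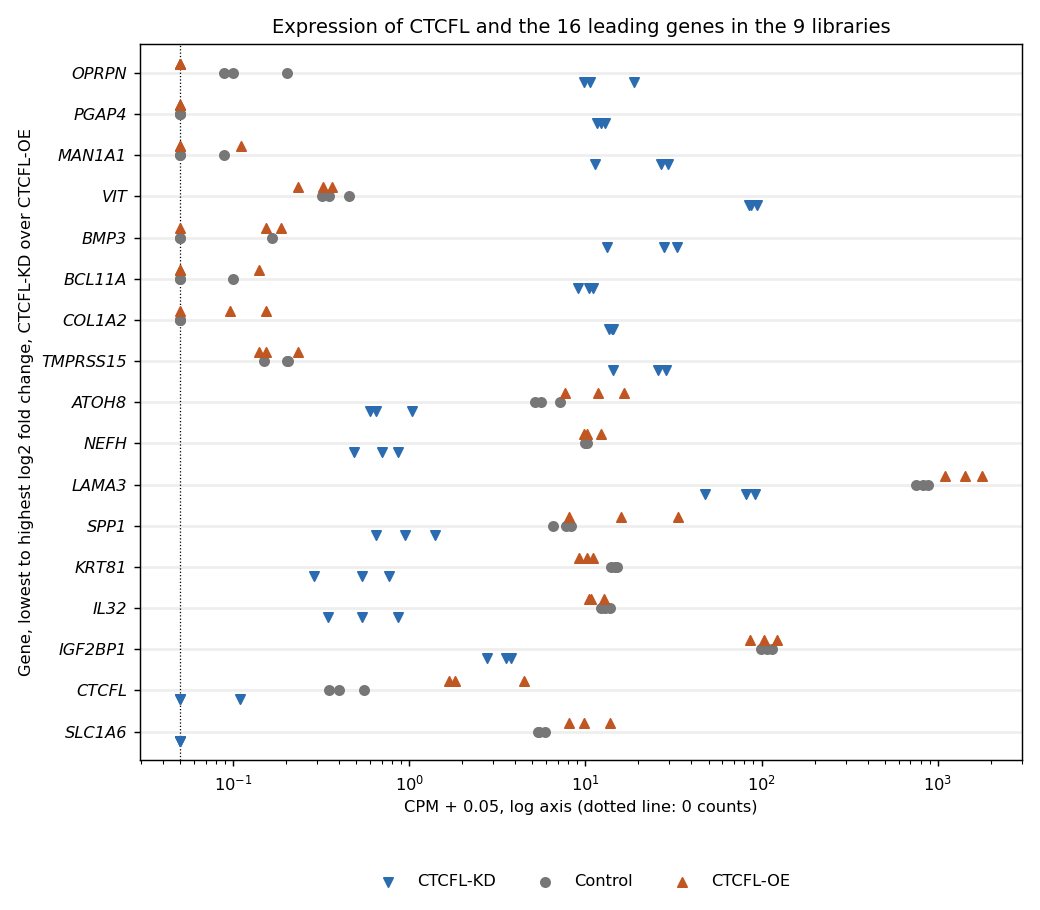
CPM plus 0.05 on a log axis for *CTCFL* and the 16 genes with the highest and lowest log2 fold changes within the limits given, 1 point per library. CTCFL-OE (upward triangles) and Control (circles) lie together near 0 in the 8 highest genes, while in *SLC1A6*, *LAMA3*, *ATOH8* and *CTCFL* the Control libraries lie between CTCFL-KD (downward triangles) and CTCFL-OE.

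Over all 3032 DEGs, Control lay between the groups in a small share. Every Control library fell between all CTCFL-KD and all CTCFL-OE libraries in 376 DEGs (12.4%), of which 187 were higher and 189 lower in CTCFL-KD. The share among all genes tested was 3.29%. A gene can have this order only when the groups do not overlap, and among genes whose groups did not overlap the share was 12.7% of 2952 DEGs and 8.27% of all 7082 genes tested. Control lay outside both groups in 574 DEGs (18.9%), beside 20.4% of all genes tested. In 212 of these Control was above both groups, of which 210 were lower in CTCFL-KD than in CTCFL-OE. In 362 Control was below both groups, of which 359 were higher in CTCFL-KD. Thus where Control lay outside, it was nearer to CTCFL-OE in nearly every gene, and the CTCFL-OE libraries stood between Control and CTCFL-KD. In 1827 DEGs (60.3%) Control overlapped CTCFL-OE only, beside 32.6% of all genes tested. In 184 (6.07%) it overlapped CTCFL-KD only and in 71 (2.34%) both, beside 13.4% and 30.3% of all genes tested. Where the groups did not overlap, Control overlapped CTCFL-OE only in 60.5% of DEGs and in 53.8% of all genes tested.

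The place of Control was read from libraries that did not overlap, and most steps from Control to CTCFL-OE did not pass a test of their own. Of the 376 DEGs with Control between the groups, 14 had an adjusted p under 0.05 for CTCFL-OE against Control and 295 for CTCFL-KD against Control in the same edgeR fit, and 12 had both. Of the 574 with Control outside, the first step passed in 58 and the second in 571. Over all genes tested the shares were 1.11% and 38.2%, and these comparisons share the Control libraries. The DEGs were sorted by position in the same libraries, so the tests add no separate support for the order. Among the genes and lists described here, 34 DEGs had Control between the groups, and the step to CTCFL-OE passed in *CTCFL*, *STC1*, *DUSP2* and *DHRS9* alone. The step to CTCFL-KD passed in all of the 34 but *MUC1*, *SPARC* and *IFIT1*. With Control outside, the step to CTCFL-OE passed in 17 of 48.

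Read by group means of log2 CPM in place of single libraries, Control was between the groups in 1472 DEGs (48.5%), beside 31.3% of all genes tested. The Control mean was nearer to the CTCFL-OE mean than to the CTCFL-KD mean in 2741 DEGs (90.4%), beside 72.6% of all genes tested. Without one library at a time, the count of DEGs with Control between the groups ranged from 411 to 772, above 376 each time, with fewer libraries left to meet the order. It was 772 without replicate 1 of CTCFL-OE. The root mean square log2 difference of this library from the Control libraries was 0.36 to 0.37, against 0.49 to 0.61 for the other CTCFL-OE libraries, and its part in the count was not tested. Without replicate 1 of CTCFL-KD, 449 DEGs had Control between the groups and 558 had Control outside.

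**Figure D2:**
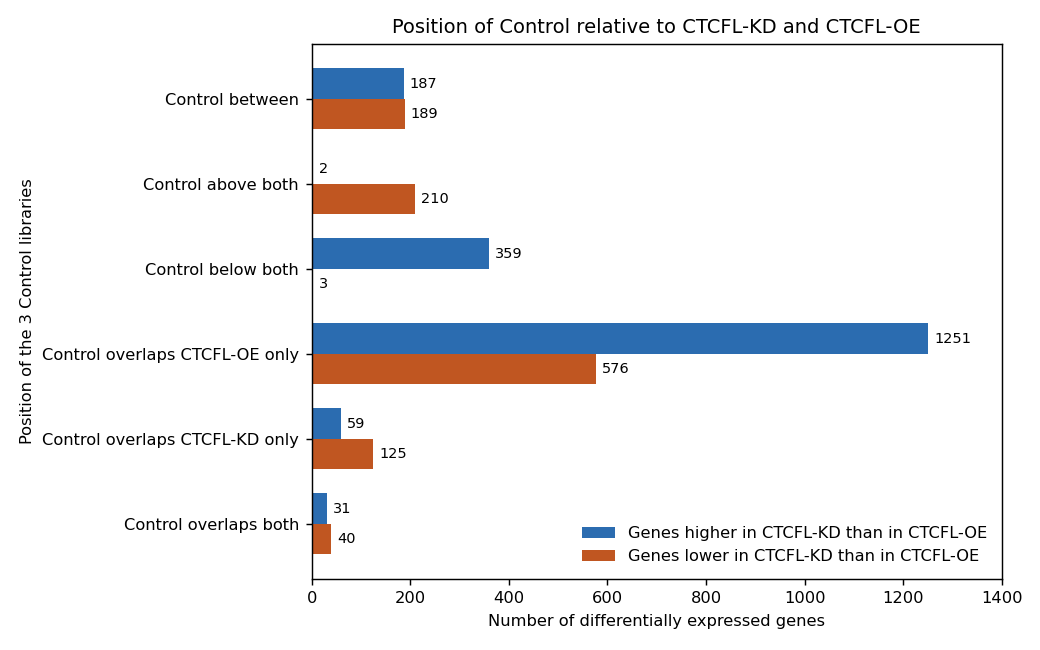
Number of DEGs by the position of the 3 Control libraries relative to the 3 CTCFL-KD and 3 CTCFL-OE libraries, for genes higher and lower in CTCFL-KD. The longest bars, 1251 and 576 genes, are those in which Control overlapped CTCFL-OE only, and Control lay between the groups in 187 and 189 genes.

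Among the protein-coding DEGs whose groups did not overlap and whose higher group reached 10 CPM, the genes with the clearest dose order were ranked by the smaller of the steps from Control to each group. Among those that rose with *CTCFL*, the largest were *STC1*, *RBM20*, *DUSP2* and *DHRS9*. *STC1*, the secreted glycoprotein hormone stanniocalcin 1, had 2.35, 3.63 and 6.96 CPM in CTCFL-KD, 11.5, 11.2 and 12.4 CPM in Control and 29.8, 33.8 and 76.5 CPM in CTCFL-OE. The groups followed the level of *CTCFL* with no overlap, and the log2 fold change was -3.41 (SE 0.44, adjusted p 0.000305). *RBM20*, a splicing factor whose promoter is shown above, had 0.0902, 1.31 and 0.876 CPM in CTCFL-KD, 3.51, 4.12 and 4.10 CPM in Control and 15.1, 11.8 and 8.60 CPM in CTCFL-OE. Its lowest value, 1 count, came from replicate 1 of CTCFL-KD, and the log2 fold change was -3.85 (SE 0.46, adjusted p 0.00019). *DUSP2*, a phosphatase of MAP kinases, had 1.53, 1.37 and 1.21 CPM, 3.56, 2.84 and 3.60 CPM and 6.34, 15.1 and 23.3 CPM in the same order of groups, with a log2 fold change of -3.45 (SE 0.43, adjusted p 0.00027). *DHRS9*, a retinol dehydrogenase, had 1.53, 0.892 and 1.37 CPM, 4.46, 5.25 and 4.66 CPM and 9.39, 13.01 and 10.02 CPM, with a log2 fold change of -3.11 (SE 0.25, adjusted p 2.51e-05).

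Within the same limits, among the genes that fell as *CTCFL* rose, the largest smaller steps were those of *AGR2*, *EDN1*, *BNIP3* and *PDK1*. *AGR2*, a protein disulfide isomerase of secretory epithelia, had 33.3, 18.1 and 17.5 CPM in CTCFL-KD, 4.51, 5.17 and 5.12 CPM in Control and 2.14, 1.41 and 3.01 CPM in CTCFL-OE, and its log2 fold change was 3.39 (SE 0.33, adjusted p 5.81e-05). *EDN1*, which encodes the vasoconstrictor peptide endothelin 1, had 9.92, 13.2 and 15.9 CPM, 3.96, 3.73 and 3.95 CPM and 1.87, 1.15 and 2.21 CPM in that order, with a log2 fold change of 2.90 (SE 0.27, adjusted p 4.64e-05). In both genes the 3 groups were apart, with the widest gap between Control and CTCFL-KD. *BNIP3*, a mitophagy receptor induced by hypoxia, had 101, 83.0 and 178 CPM, 52.7, 50.1 and 58.3 CPM and 27.6, 26.3 and 23.3 CPM, with a log2 fold change of 2.23 (SE 0.27, adjusted p 0.000204). *PDK1*, the kinase that restrains pyruvate dehydrogenase, had 23.2, 37.5 and 53.3 CPM, 15.5, 18.4 and 20.1 CPM and 11.4, 7.94 and 6.88 CPM, with a log2 fold change of 2.12 (SE 0.30, adjusted p 0.000599). The steps on either side of Control differed in size, with log2 fold changes over Control in CTCFL-OE and CTCFL-KD of -1.18 and 2.21 for *AGR2* and of 2.00 and -1.41 for *STC1*. By the same fit, the step from Control to CTCFL-KD had an adjusted p under 0.05 in all 8 genes, but the step to CTCFL-OE did not in 5, namely *RBM20* (adjusted p 0.0747), *AGR2* (0.11), *EDN1* (0.0714), *BNIP3* (0.0795) and *PDK1* (0.121). For these 5 genes the place of Control below or above CTCFL-OE rests on libraries that did not overlap. Both steps use the same Control libraries, so they are not independent. The 8 genes were also chosen by the size of these steps in the same libraries, so the tests add no separate support.

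The opposite order, with Control outside both groups, held for *TGFBI*, *TGM2* and *PMEPA1* with Control highest and for *GGT6*, *IL12A* and *EDN2* with Control lowest. *TGM2*, a transglutaminase that cross-links proteins, had 514, 507 and 534 CPM in Control, 143, 87.2 and 77.7 CPM in CTCFL-OE and 12.8, 15.3 and 18.5 CPM in CTCFL-KD, and its log2 fold change between CTCFL-KD and CTCFL-OE was -2.72 (SE 0.26, adjusted p 5.63e-05). *TGFBI*, a matrix protein induced by TGF-beta, had 82.6, 87.2 and 86.4 CPM in Control, 7.30, 11.7 and 26.2 CPM in CTCFL-OE and 2.35, 2.26 and 1.37 CPM in CTCFL-KD (log2 fold change -2.93, SE 0.44, adjusted p 0.000783). Neither gene followed the level of *CTCFL*, since both the highest and the lowest group of *CTCFL* had less transcript than Control. *PMEPA1*, a TGF-beta target that dampens the pathway, had 188, 178 and 189 CPM in Control, 24.2, 35.9 and 61.9 CPM in CTCFL-OE and 15.6, 13.1 and 15.4 CPM in CTCFL-KD (log2 fold change -1.47, SE 0.29, adjusted p 0.0042).

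With Control lowest, *GGT6*, of the gamma-glutamyltransferase family, had 24.6, 15.7 and 15.7 CPM in CTCFL-KD, 1.87, 2.19 and 2.95 CPM in CTCFL-OE and 0.701, 0.505 and 0.709 CPM in Control (log2 fold change 3.0, SE 0.27, adjusted p 3.53e-05). *IL12A*, which encodes a subunit of the cytokine interleukin 12, had 21.6, 18.9 and 22.8 CPM, 5.52, 6.11 and 6.76 CPM and 2.20, 2.49 and 1.37 CPM in the same groups (log2 fold change 1.79, SE 0.22, adjusted p 0.00022). *EDN2*, which encodes endothelin 2, had 21.9, 12.7 and 18.6 CPM, 3.51, 2.04 and 6.45 CPM and 1.45, 1.24 and 0.810 CPM (log2 fold change 2.15, SE 0.38, adjusted p 0.00202). The step of *EDN2* from Control to CTCFL-OE did not pass (adjusted p 0.0752). The endothelin genes thus differed in their order over the groups. Both were higher in CTCFL-KD than in CTCFL-OE, yet Control lay between the groups for *EDN1* and below both for *EDN2*. The difference between the 2 genes was not tested.

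**Figure D3:**
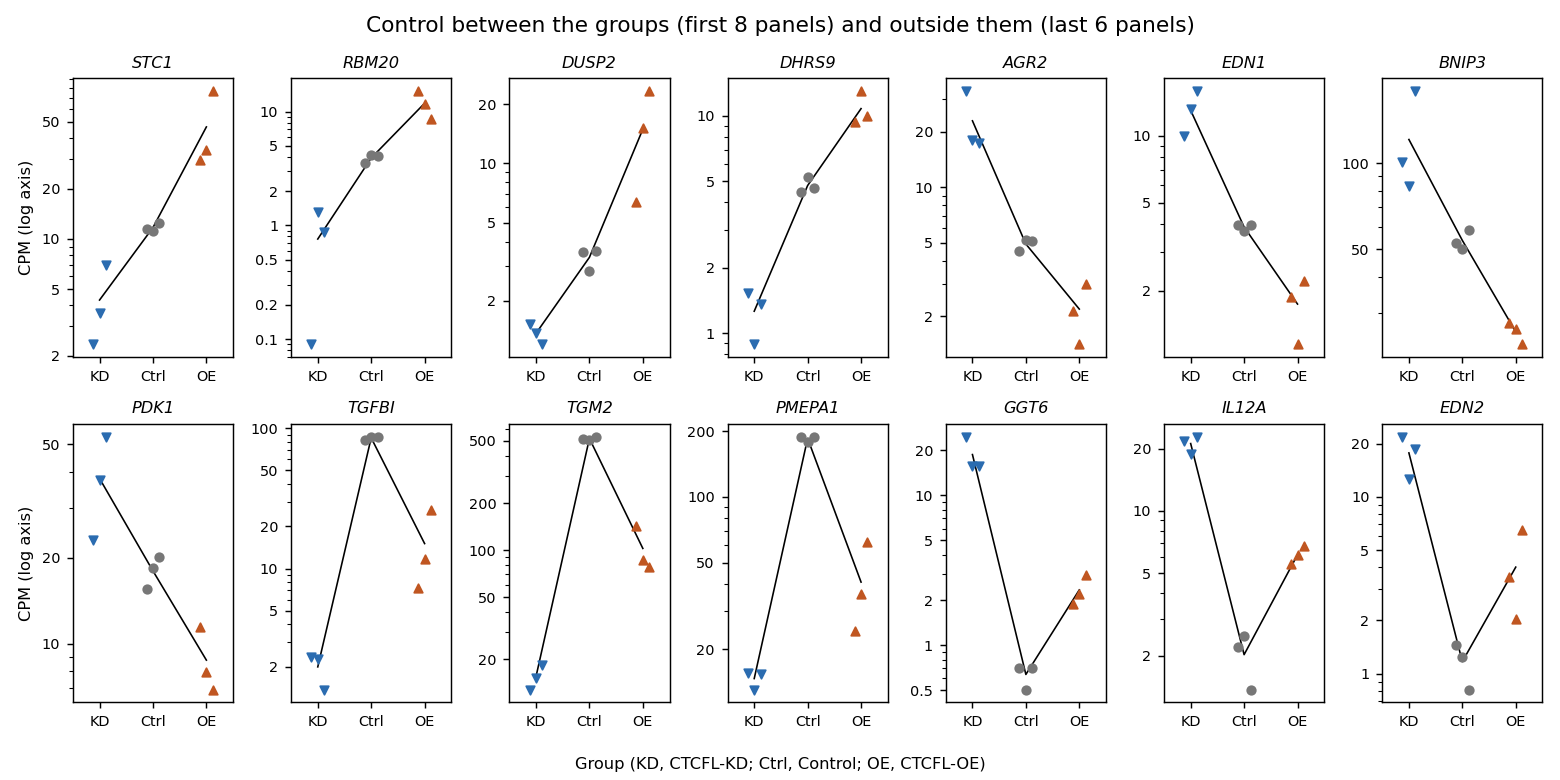
CPM on a log axis in CTCFL-KD, Control and CTCFL-OE for the 8 genes with the clearest dose order and the 6 genes with Control outside both groups, with 1 point per library and a line through the group means. The line runs one way from *STC1* to *PDK1* and turns at Control from *TGFBI* to *EDN2*.

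The gene lists cover processes studied in ovarian cancer, and the counts of DEGs are to be read against 17.0% of all genes tested. No test of a list as a whole was made. The median log2 fold change of all genes tested was 0.04.

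Of 22 mitosis genes tested, 8 were DEGs, all lower in CTCFL-KD than in CTCFL-OE, and 14 did not pass. A negative log2 fold change was found in 21, and the median was -0.94. *PLK1*, a mitotic kinase, had 36.3, 31.3 and 23.99 CPM in CTCFL-KD, 75.1, 67.8 and 71.5 CPM in Control and 92.8, 86.9 and 76.3 CPM in CTCFL-OE, with Control between the groups (log2 fold change -1.48, SE 0.19, adjusted p 0.000266). *CENPE*, a kinetochore motor, had 29.8, 41.2 and 37.7 CPM, 87.7, 104 and 89.9 CPM and 110.1, 104 and 95.8 CPM, with Control overlapping CTCFL-OE (log2 fold change -1.51, SE 0.18, adjusted p 0.000171). Control lay between the groups in *PLK1*, *KIF23* and *CDC20* and overlapped CTCFL-OE in *AURKA*, *TTK*, *CENPE* and *TOP2A*. The steps of *PLK1*, *KIF23* and *CDC20* from Control to CTCFL-OE, with log2 fold changes of 0.26, 0.19 and 0.12, did not pass (adjusted p 0.484, 0.631 and 0.811). *MKI67*, the proliferation marker, had Control overlapping CTCFL-KD only, at 188, 327 and 259 CPM in CTCFL-KD, 306, 403 and 358 CPM in Control and 482, 573 and 563 CPM in CTCFL-OE. *KIF23*, *TTK* and *MKI67* were no DEGs without replicate 1 of CTCFL-KD, *CDC20* was none without replicate 2 or replicate 3, and *TTK* was none without replicate 1 of CTCFL-OE. *MKI67* was also none with length offsets, alone or with the replicate block. The list held 13 DEGs without replicate 3 of CTCFL-OE and 7 to 11 in the other fits. None of the 23 DNA replication genes tested was a DEG, with a median of -0.32.

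Of 22 genes of hypoxia and glycolysis tested, 7 were DEGs, all higher in CTCFL-KD, and 15 did not pass. The log2 fold change was positive in 20, and the median was 0.65. Control lay between the groups in 5 of the 7 DEGs, *BNIP3*, *PDK1*, *PFKFB4*, *ENO2* and *P4HA1*. *PFKFB4*, which sets the level of an activator of glycolysis, had 26.8, 24.3 and 83.2 CPM in CTCFL-KD, 9.57, 10.8 and 8.46 CPM in Control and 4.56, 6.43 and 5.53 CPM in CTCFL-OE (log2 fold change 3.03, SE 0.44, adjusted p 0.000645). *P4HA1*, a collagen prolyl hydroxylase subunit, had 87.6, 139 and 186 CPM, 77.6, 78.2 and 81.03 CPM and 35.5, 35.4 and 57.2 CPM in the same groups (log2 fold change 1.69, SE 0.28, adjusted p 0.00154). *VEGFA*, the vascular growth factor whose predicted site is shown above, had Control below both groups, at 48.3, 62.5 and 97.6 CPM in CTCFL-KD, 22.8, 35.4 and 35.6 CPM in CTCFL-OE and 13.9, 14.8 and 14.1 CPM in Control (log2 fold change 1.16, SE 0.26, adjusted p 0.0089). Replicate 3 of CTCFL-KD was the highest library for all 7 DEGs but *ENO2*. In *ADM*, the peptide adrenomedullin, that library had 65.8 CPM against 7.22 and 4.40 in the others, and without it *ADM* and *VEGFA* were no DEGs. *VEGFA* was also none without replicate 1 of CTCFL-OE, and *ADM* was none without any one CTCFL-OE library or on the 6 libraries alone by edgeR or DESeq2. Without replicate 3 of CTCFL-KD the list held 6 DEGs, and without replicate 1 it held 10. The glycolytic enzymes *LDHA*, *PGK1* and *ENO1*, which lay outside the rule for named genes, did not pass, with log2 fold changes of 0.37, 0.46 and 0.17. *ALDOA*, the lowest of the list, did not pass either (-0.37).

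Of 21 interferon-stimulated genes tested, 8 were DEGs, of which 7 were lower and *MX2* was higher in CTCFL-KD, and 13 did not pass. A negative log2 fold change was found in 14, and the median was -0.51. *BST2*, the antiviral protein tetherin, had 11.0, 5.53 and 4.33 CPM in CTCFL-KD, 40.3, 43.3 and 42.9 CPM in Control and 47.2, 45.9 and 82.96 CPM in CTCFL-OE (log2 fold change -3.10, SE 0.35, adjusted p 0.000155). *IFI27* had 3.97, 2.62 and 1.75 CPM, 9.62, 9.52 and 8.81 CPM and 20.3, 11.8 and 9.77 CPM in the same groups (log2 fold change -2.37, SE 0.34, adjusted p 0.000584). Both had Control between the groups, as had *IFIT1* and *IFIT2*, with steps from Control to CTCFL-OE that did not pass in any of the 4 (adjusted p 0.458, 0.338, 0.0624 and 0.523), while *IFIT5* and *RIGI*, a sensor of viral RNA, had Control overlapping CTCFL-OE. In *OASL*, Control overlapped CTCFL-KD only. *MX2*, an antiviral GTPase, went the other way, with 5.77, 8.32 and 6.63 CPM in CTCFL-KD and 0.502, 0.157 and 0.369 CPM in CTCFL-OE (log2 fold change 4.30, SE 0.36, adjusted p 2.79e-05). *IFIT5* was no DEG without replicate 1 of CTCFL-OE or of CTCFL-KD.

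**Figure D4:**
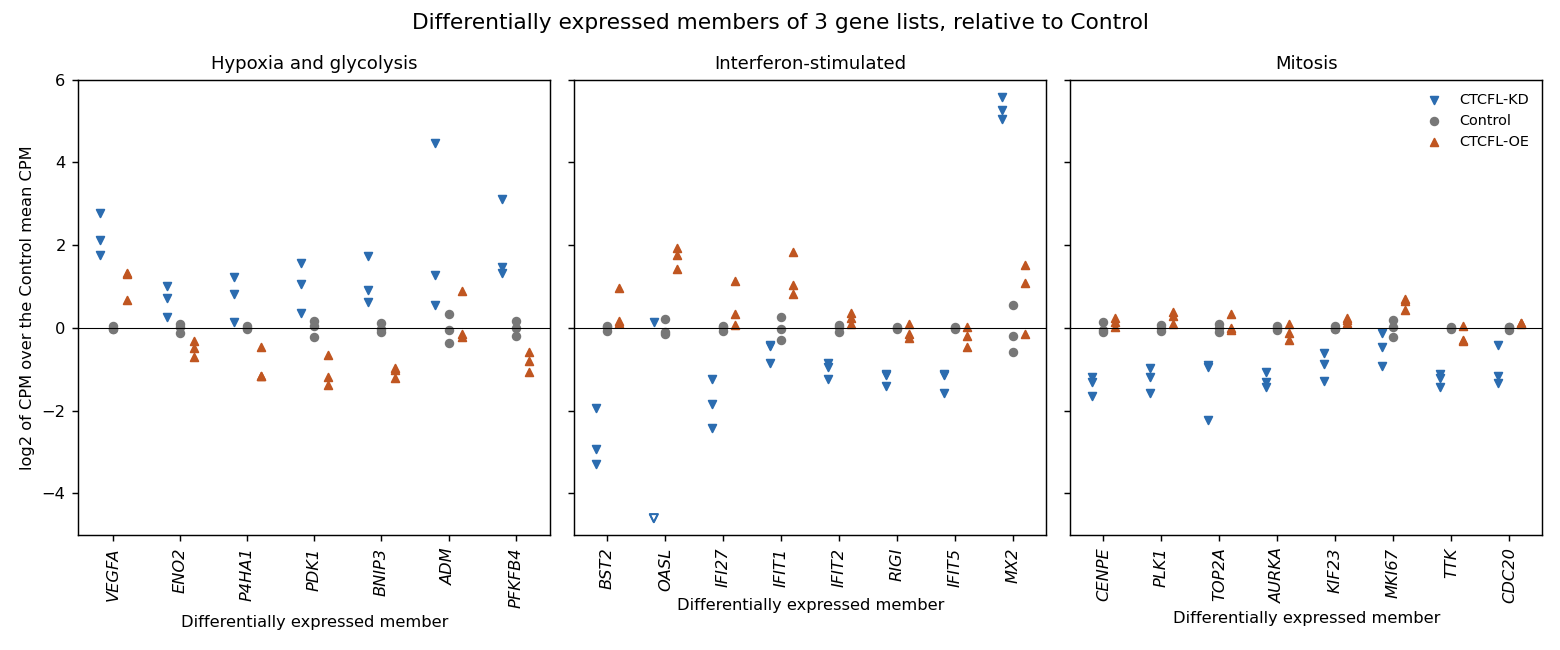
log2 of CPM over the Control mean for the DEGs of the hypoxia and glycolysis, interferon-stimulated and mitosis lists, 1 point per library, where open symbols at the lower edge mark libraries with 0 counts. In *ENO2*, *P4HA1*, *PDK1*, *BNIP3* and *PFKFB4* the CTCFL-KD libraries lie above 0 and the CTCFL-OE libraries below it, while the mitosis genes lie below 0 in CTCFL-KD and, *MKI67* apart, near it in CTCFL-OE.

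Genes of the extracellular matrix and of adhesion moved in both directions. Of 38 matrix protein genes tested, 20 were DEGs, 12 higher and 8 lower in CTCFL-KD. Control lay between the groups in *LAMA3* and *NID2* alone among these 20, below both groups in 7 and above both in *COL17A1* and *TGFBI*. *LAMA1* and *LAMA4*, other laminin alpha chains, moved against *LAMA3*. *LAMA1* had 85.3, 119.9 and 141 CPM in CTCFL-KD, 32.1, 34.7 and 38.5 CPM in CTCFL-OE and 15.5, 19.4 and 15.3 CPM in Control (log2 fold change 1.72, SE 0.21, adjusted p 0.000234), and that of *LAMA4* was 2.26. The collagen gene *COL5A2* had 64.4, 116 and 122 CPM in CTCFL-KD and 7.62, 12.4 and 15.2 CPM in CTCFL-OE (log2 fold change 3.10, SE 0.31, adjusted p 6.18e-05). *LAMA1*, *LAMA4* and *COL5A2* lay outside the rule for named genes and were chosen after their values were seen.

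Of 18 integrin subunit genes tested, 5 were DEGs, of which *ITGA3*, *ITGB2*, *ITGB3* and *ITGB6* were lower and *ITGB5* was higher in CTCFL-KD. *ITGB3*, the beta subunit of the vitronectin receptor, had 6.58, 3.21 and 5.37 CPM in CTCFL-KD, 41.1, 38.6 and 70.2 CPM in CTCFL-OE and 115, 117 and 125 CPM in Control (log2 fold change -3.32, SE 0.31, adjusted p 4.64e-05). Control was above both groups in *ITGB3* and *ITGB6* and between them in *ITGB2*. The list held 8 DEGs without replicate 1 of CTCFL-KD, without replicate 1 of CTCFL-OE, with no filter on low counts and with the replicate block and length offsets together. Of 14 genes of matrix metalloproteinases and their inhibitors, 8 were DEGs, 6 higher and 2 lower in CTCFL-KD, and the median was 0.83. None of the 8 had Control between the groups. *MMP7*, matrilysin, had 0.722, 0.0595 and 0.219 CPM in CTCFL-KD, 3.24, 3.29 and 5.35 CPM in CTCFL-OE and 20.1, 22.3 and 19.9 CPM in Control (log2 fold change -3.73, SE 0.49, adjusted p 0.000343). *MMP2* was lower in CTCFL-KD too (log2 fold change -2.68), while *MMP10*, with Control above both groups, was higher in CTCFL-KD than in CTCFL-OE (log2 fold change 2.29). Also higher were *MMP9*, *MMP11*, *MMP14*, *MMP16* and *MMP17*, with log2 fold changes of 1.46, 1.15, 1.11, 2.59 and 1.67. *MMP9* was no DEG without replicate 1 of CTCFL-KD or without replicate 2 or 3 of CTCFL-OE, *MMP11* was none without replicate 1 of CTCFL-KD, and *MMP14* was none without replicate 1 of CTCFL-OE or replicate 3 of CTCFL-KD. On the 6 libraries alone, *MMP9* was none by edgeR or DESeq2 and *MMP14* was none by edgeR. With at least 10 counts required in every library the list held 4 DEGs.

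Of 25 genes of the TGF-beta pathway and its response, 10 were DEGs, 4 higher and 6 lower in CTCFL-KD, and none had Control between the groups. The inhibitory *SMAD7* (log2 fold change -2.45) was lower in CTCFL-KD along with *TGFBI*. *LRRC32*, which docks latent TGF-beta at the cell surface, was higher, at 24.1, 25.2 and 41.2 CPM in CTCFL-KD and 2.60, 3.87 and 4.42 CPM in CTCFL-OE (log2 fold change 3.06, SE 0.28, adjusted p 4.54e-05). *SMAD7* was chosen after its values were seen.

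Of 20 epithelial genes, 7 were DEGs, 6 of them higher in CTCFL-KD, and the median was 0.66. *KRT18*, a keratin of simple epithelia, had 3963, 1669 and 1509 CPM in CTCFL-KD and 785, 582 and 473 CPM in CTCFL-OE (log2 fold change 1.96, SE 0.37, adjusted p 0.00301), with replicate 1 of CTCFL-KD far above the others. *KRT8* (log2 fold change 1.56) and the claudin gene *CLDN3* (1.68) moved the same way, and the keratins have close pseudogenes, so their values are uncertain. *OVOL1*, a transcription factor of epithelia, was lower in CTCFL-KD (-1.96). *KRT19*, *CLDN4* and *MUC1* were no DEGs without replicate 1 of CTCFL-KD, and *CLDN4* and *MUC1* were none without replicate 1 of CTCFL-OE. *MUC1* was also none with upper-quartile scaling, with no filter on low counts and with length offsets, alone or with the replicate block. Of 8 mesenchymal genes tested, 7 were DEGs, 4 higher and 3 lower in CTCFL-KD. N-cadherin (*CDH2*) had 17.4, 30.7 and 27.8 CPM in CTCFL-KD, 10.2, 11.1 and 10.99 CPM in Control and 5.15, 4.55 and 7.01 CPM in CTCFL-OE, with Control between the groups (log2 fold change 2.19, SE 0.25, adjusted p 0.000141). *SNAI1*, a repressor of E-cadherin, went the opposite way, with a log2 fold change of -1.49. *TWIST1* was higher and *SPARC* and *TAGLN* were lower in CTCFL-KD, with log2 fold changes of 1.28, -1.12 and -1.40. *VIM* was no DEG without replicate 1 of CTCFL-KD or replicate 2 of CTCFL-OE, *SPARC* was none without replicate 3 of CTCFL-OE, and *TAGLN* was none without replicate 2 of CTCFL-OE. *S100A4* was a DEG in 8 of 19 fits, the reported one left aside, and its call was lost without replicate 1 of CTCFL-KD, without any one CTCFL-OE or Control library, on the 6 libraries alone by edgeR, with RLE scaling, with at least 10 counts required in every library and with the replicate block and length offsets together. The mesenchymal list held 4 DEGs without replicate 2 of CTCFL-OE. The summed CPM of the epithelial list was 10081 to 17538 in CTCFL-KD and 6054 to 6361 in CTCFL-OE, highest in replicate 1 of CTCFL-KD.

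The ovarian carcinoma markers overlap the epithelial list and held 6 DEGs among 13 tested. *MUC16*, which encodes the tumor antigen CA125, had 1008, 1984 and 1784 CPM in CTCFL-KD, 188, 283 and 195 CPM in Control and 184, 359 and 247 CPM in CTCFL-OE (log2 fold change 2.60, SE 0.34, adjusted p 0.000342). *MECOM*, a zinc-finger regulator amplified in ovarian cancer, was lower in CTCFL-KD (log2 fold change -1.56). *FOLR1*, the folate receptor, and *MSLN*, mesothelin, were higher, with log2 fold changes of 1.54 and 1.07, and neither was a DEG without replicate 1 of CTCFL-KD or without replicate 1 or 2 of CTCFL-OE. *MSLN* was a DEG in 5 of 19 other fits. Its call was also lost without replicate 3 of CTCFL-OE, without any one Control library, on the 6 libraries alone by edgeR, with RLE scaling, under either change of the low-count filter, and with the replicate block or length offsets.

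Of 23 genes of cholesterol and fatty acid synthesis tested, 5 (21.7%) were DEGs, all higher in CTCFL-KD, and 18 did not pass. The log2 fold change was positive in 22, and the median was 0.61. *SREBF1*, a master regulator of lipid synthesis, had 441, 361 and 387 CPM in CTCFL-KD, 95.96, 151 and 142 CPM in CTCFL-OE and 93.2, 93.3 and 91.7 CPM in Control (log2 fold change 1.61, SE 0.20, adjusted p 0.00027). *SCD*, a fatty acid desaturase, and *INSIG1*, which restrains the pathway, had log2 fold changes of 1.75 and 1.64, with Control overlapping CTCFL-OE. No DEG of this list had Control between the groups. *MSMO1* was no DEG without replicate 1 of CTCFL-OE.

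Of 37 PI3K-Akt genes tested, 11 were DEGs, 4 higher and 7 lower in CTCFL-KD, and some of them had been chosen by the study on these samples. Control lay between the groups for *IGF1* and its receptor *IGF1R*, which went in opposite directions. *IGF1* had 8.21, 4.34 and 3.29 CPM in CTCFL-KD, 2.50, 1.90 and 1.92 CPM in Control and 0.319, 0.209 and 0.799 CPM in CTCFL-OE (log2 fold change 3.59, SE 0.48, adjusted p 0.000393). *IGF1R* had 6.31, 11.6 and 11.5 CPM, 18.3, 20.1 and 19.9 CPM and 21.1, 35.1 and 38.2 CPM (log2 fold change -1.67, SE 0.28, adjusted p 0.00141). *IGF1R* was chosen after its values were seen. Of 18 genes of ERK output, 4 were DEGs, of which *FOSL1*, a subunit of AP-1, was the lowest (log2 fold change -3.0), followed by *CCND1*, cyclin D1 (-1.53), and *IER3* (-1.20), all with Control above both groups. *SPRY2*, an inhibitor of the pathway, was higher in CTCFL-KD (1.07) and was no DEG without replicate 1 or 2 of CTCFL-OE or replicate 2 or 3 of CTCFL-KD. *IER3* was none without replicate 3 of CTCFL-OE.

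Of 23 genes of the neuronal cytoskeleton and of neuronal adhesion, 14 were DEGs, 9 higher and 5 lower in CTCFL-KD. The adhesion gene *CNTN1* was the highest, with 5.95, 10.2 and 13.1 CPM in CTCFL-KD and at most 1 count in any CTCFL-OE library (ratio 591, 95% interval 106 to 23399.6). *MAP2*, a microtubule-binding protein of dendrites, was the lowest, at 3.52, 7.55 and 7.89 CPM in CTCFL-KD, 43.6, 47.8 and 45.7 CPM in CTCFL-OE and 166, 187 and 187 CPM in Control (log2 fold change -2.83, SE 0.27, adjusted p 4.64e-05). Control lay between the groups in *L1CAM* alone among the 14 (log2 fold change -2.30). With at least 10 counts required in every library, 8 of the list were DEGs. Of 30 cancer-testis genes, 6 passed the count filter and *SSX2* and *SSX4* were DEGs, both lower in CTCFL-KD. *SSX2* had 24.3, 17.4 and 15.3 CPM in CTCFL-KD, 44.02, 45.3 and 45.7 CPM in Control and 74.4, 76.4 and 62.01 CPM in CTCFL-OE, with Control between the groups (log2 fold change -1.90, SE 0.20, adjusted p 8.63e-05). The SSX genes are near-identical copies, so the split of reads among them is uncertain. The cancer-testis list held 6 DEGs with no filter on low counts and 1 with at least 10 counts in every library.

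No DEG was found by edgeR among 15 genes of CTCF and cohesin, 20 of the integrated stress response and 13 encoded by the mitochondrial genome. DESeq2 on all 9 libraries gave 0, 1 and 0 DEGs, and across all settings run up to 1, 2 and 1 members of these lists were DEGs, against none of the DNA replication genes. By unadjusted p under 0.05, without a fold threshold, 5, 5 and 1 of their members passed, and 7 of the DNA replication genes. With RLE or upper-quartile scaling, length offsets or DESeq2 on all 9 libraries these counts reached at most 9, 6, 2 and 12. The log2 fold change was negative in 13 of the 15 genes of CTCF and cohesin and in 18 of the 23 DNA replication genes. The cohesin subunit gene *SMC3* had 47.8, 91.3 and 80.96 CPM in CTCFL-KD and 154, 147 and 129 CPM in CTCFL-OE. It passed on adjusted p but stayed just inside the fold threshold (log2 fold change -0.97, SE 0.23, adjusted p 0.0108). *DDIT4*, of the integrated stress response, passed the fold threshold but not the test (log2 fold change 1.16, adjusted p 0.0565). Of markers of other cells, the 7 fibroblast genes tested held 3 DEGs, the 5 endothelial genes 3 and the 3 leukocyte genes 2. The fibroblast DEGs were *COL1A2* and *POSTN* (ratio 8.28, 95% interval 3.49 to 23.9), higher in CTCFL-KD, and *MFAP5* (-2.76), lower. The fibroblast list held 5 DEGs without any one CTCFL-OE library or with no filter on low counts. With at least 10 counts in every library the 3 marker lists held 0, 1 and 0 DEGs, and on the 6 libraries alone the leukocyte list held 1 by edgeR and by DESeq2. Of the endothelial DEGs 2 were higher and 1 lower in CTCFL-KD, and of the leukocyte DEGs 1 was higher and 1 lower. *KDR*, a receptor of VEGFA, had 5.86, 13.97 and 15.4 CPM in CTCFL-KD and 1.73, 2.35 and 3.01 CPM in CTCFL-OE (log2 fold change 2.33). *ESAM* was higher (1.84) and *PECAM1* lower (-1.55) in CTCFL-KD, and both stayed under 2 CPM in every library. *CSF1R* was lower in CTCFL-KD and also stayed under 2 CPM in every library. *PECAM1* was no DEG without replicate 1 of CTCFL-OE or replicate 2 of CTCFL-KD, nor on the 6 libraries alone by edgeR or DESeq2, and *ESAM* was none without replicate 2 of CTCFL-OE. *CD14* was higher in CTCFL-KD (log2 fold change 2.44), where it reached 3.07, 1.31 and 1.37 CPM. *PTPRC*, the leukocyte antigen CD45, had at most 0.438 CPM in any library.

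**Figure D5:**
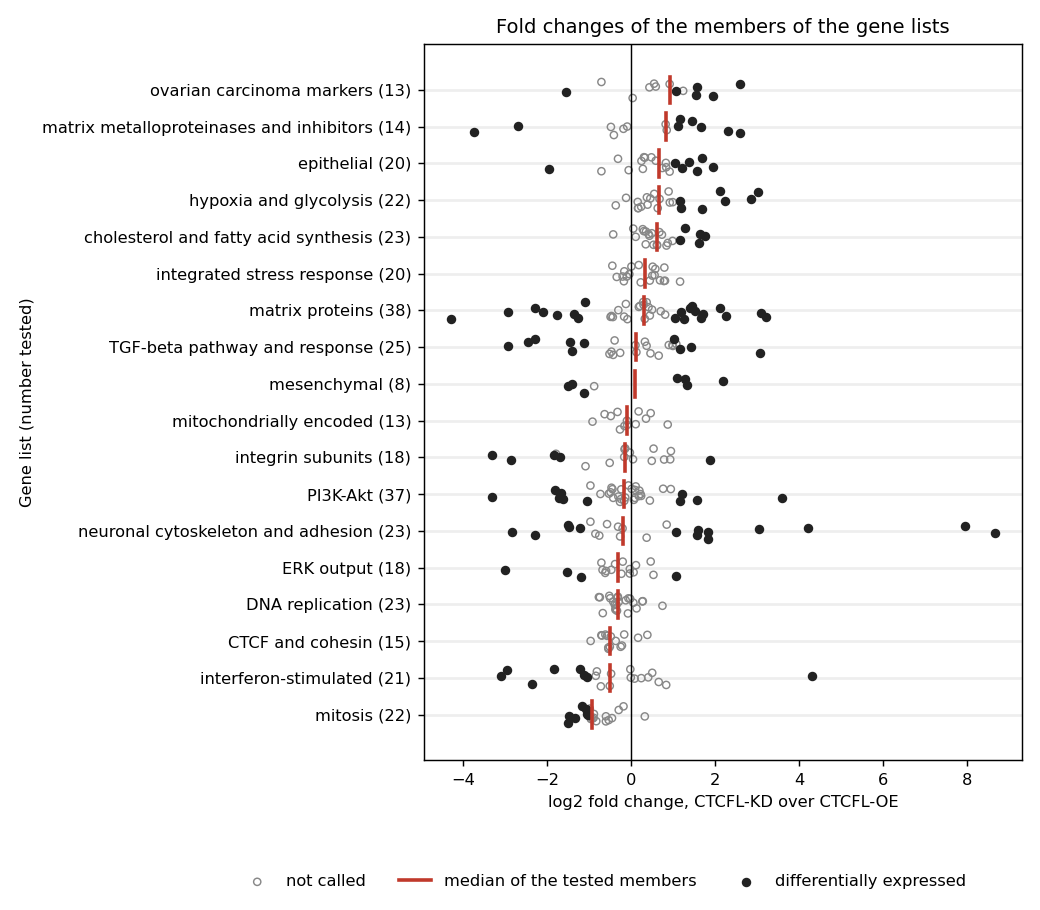
log2 fold change, CTCFL-KD over CTCFL-OE, of every tested member of the gene lists with 8 or more tested members, with filled points for DEGs, open points for genes that did not pass and a bar at the median. Mitosis has the lowest median (-0.94) and the ovarian carcinoma markers the highest (0.92), and matrix, integrin and neuronal genes spread to both sides of 0.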

How the data were processed

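RNA was sequenced from 9 OVCAR3 libraries, in 3 groups of 3. The methods name STAR for alignment to GRCh38, and the submitters' processing notes list Trimmomatic, kallisto and featureCounts. The authors deposited raw gene counts without normalization, in 1 file per library and a matrix with the same counts. Neither the annotation release nor the use of strand nor the handling of multimapping reads is given in the sources used here. Of 60660 identifiers, 60419 were named with GENCODE release 44, and 37834 had a count.

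The tool was edgeR 4.0.16 (R 4.3.3): filterByExpr kept 17794 genes, library sizes were scaled by TMM, and glmQLFit with robust estimation was fitted to the 9 libraries, with the group as the only term. CTCFL-KD minus CTCFL-OE was tested with glmQLFTest and Benjamini-Hochberg adjustment over all genes tested. A DEG had an adjusted p under 0.05 and a fold change above 2. Standard errors are the absolute log2 fold change over the square root of F. Control lay between the groups, or outside them, when all 3 Control libraries did so in CPM. For a group with 0 counts in each library, folds were computed against the mean over its libraries of 3 counts in CPM and are lower bounds. For groups with 1 to 3 counts as the highest, ratios of summed counts over summed TMM-scaled library sizes are given with exact (Clopper-Pearson) 95% intervals. A count of 3 was 0.122 to 0.209 CPM before TMM scaling. Replicates are biological per the labels, and p-values measure the spread between them.

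Named genes were *CTCFL* and *CTCF*. To these were added, among protein-coding DEGs whose groups did not overlap and whose higher group had at least 10 CPM, the 8 highest and 8 lowest fold changes, the 8 with the largest smaller step from Control between the groups and the 6 with Control furthest outside. From each of 22 lists the extreme members were named, and all DEGs where a list had 8 or fewer. The members and lists were chosen with earlier results of these data known. Lists are described by counts and medians without a set test. Promoters are from RefSeq, and predicted sites from the study's list were looked for by sequence in GRCh38, up to 60 bases from the position given. Alternatives were DESeq2 1.42.0, other samples, scalings, filters and thresholds, length trends, a replicate block and each library left out. Tables used Python 3.11.15, pandas 2.3.3 and numpy 2.4.6, and figures matplotlib 3.10.9.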

Additional observations from a re-analysis of the deposited data

How the results depend on the processing

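No result reversed under any alternative, and none of the 3032 DEGs changed sign in any fit. With at least 10 counts required in every library there were 1947 DEGs, 658 of them lower in CTCFL-KD. Fewer genes, 14490, were then tested. Without the fold threshold there were 4771 genes, 2048 of them lower in CTCFL-KD and 1058 with Control outside both groups. By glmTreat against a fold of 2 there were 1054, with 669 higher, 385 lower, 190 with Control between and 220 with Control outside. By group means, Control lay between the groups in 1472 DEGs and outside in 1560. Leaving out each library in turn gave 2544 to 3404 DEGs (1573 to 2141 higher, 971 to 1284 lower), 411 to 772 with Control between, 558 to 702 with Control outside, and a log2 fold change of *CTCFL* of -8.64 to -5.93. The highest count with Control between, 772, came without replicate 1 of CTCFL-OE, and the cause was not tested. DESeq2 gave 3187 DEGs on all libraries and 2773 on the 6 compared, edgeR on these 6 gave 2332, no filter 3923, RLE scaling 3015, upper-quartile scaling 3026 and length offsets 3090. List medians kept their sign under both scalings and the length offsets.

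Same-numbered CTCFL-OE and CTCFL-KD libraries deviated from their group means with correlations of 0.0082, 0.076 and 0.015 over 13537 genes, so the numbers do not pair the samples. With the replicate number as a block there were 2963 DEGs, and 3010 with length offsets as well. Replicates 1 and 2 of CTCFL-KD correlated best with their own number and replicate 3 did not. With the length trend removed, the correlations were -0.031, 0.065 and -0.0080, and replicate 2 alone correlated best with its own number. Of 106 named DEGs, 82 were DEGs in every fit that tested them. Depth limits *CTCFL*, with at most 1 count per CTCFL-KD library, and the 106 and 104 DEGs with CTCFL-KD or CTCFL-OE at 3 counts or fewer in every library.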
